A study of Mus musculus with 48 samples.

Results

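A set of 10 regulators of lipid synthesis genes was followed in mouse subcutaneous fat: the ChREBP group (Mlxipl, its partner Mlx and the paralog Mlxip), the SREBP group (Srebf1, Srebf2, the escort Scap and the retention proteins Insig1 and Insig2) and the LXR pair (Nr1h3, Nr1h2). They were taken by gene name, and 10 of the 54532 genes in the count table match. All 10 passed the filter on low counts, among 19977 genes tested. Poly-A RNA was sequenced from inguinal white adipose tissue (iWAT, the depot that the study also calls sWAT) of male C57BL/6 mice at 8 months of age. One group of mice ate freely (ad-lib), and the other (TAN) was fed in 2 windows a night, one early and one late in the dark phase. Each diet was sampled at 8 AM, 12 PM, 4 PM, 8 PM, 12 AM and 4 AM with 4 libraries, which gave 12 groups and 48 libraries.

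ChREBP, encoded by Mlxipl, is a glucose-responsive factor that binds DNA as a dimer with Mlx and switches on glycolytic and fatty acid synthesis genes. SREBP precursors sit in the endoplasmic reticulum with Scap, are held there by the Insig proteins when sterols are abundant, and release an active fragment when sterols fall. SREBP-1 (Srebf1) mainly drives fatty acid synthesis and SREBP-2 (Srebf2) cholesterol synthesis, while the oxysterol receptors LXR-alpha (Nr1h3) and LXR-beta (Nr1h2) induce cholesterol efflux genes and Srebf1. All of this control acts in part on protein processing and nuclear entry, which RNA levels do not show. Counts per gene also do not separate the alpha and beta forms of ChREBP or the SREBP-1a and SREBP-1c transcripts.

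Promoter stretches of the members that hold the core letters of the ChREBP/Mlx and SREBP motifs are shown as a description. Single E-boxes were searched, not spaced pairs. Windows of 250 bases before to 50 bases after each annotated start came from RefSeq on GRCm38.p6, with 17 windows for the 10 genes. An E-box, searched as CACGTG, which reads the same on both strands, lay in windows of 4 of the 10 genes, Insig1, Mlx, Mlxipl and Scap, against 8.09% of the 27025 genes with such windows. By window this was 5 of 17 against 7.15% of 32851 windows. A sterol response element, searched as TCACNCCAC on both strands, lay in 1 of the 10, Mlxipl, against 1.44% of genes. The LXR repeat, searched on both strands as AGGTCA repeated in the same direction with any 4 bases between, was in windows of 0 of the 10 and 0.0148% of genes. Each stretch below has 30 bases on the plus strand, with the match in capitals.
Insig1, chr5:28071299-28071328: gctgggtgaggtCACGTGgctccggtggca
Mlx, chr11:101087238-101087267: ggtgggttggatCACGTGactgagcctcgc
Mlxipl, chr5:135089780-135089809: gcggctgccatcCACGTGctaaggagagaa
Scap, chr9:110333304-110333333: cgccgccgggagCACGTGtggagggcggcg
Mlxipl, second start, chr5:135106745-135106774: atcagtggttTCACACCACgctcactggtt
A match describes letters in these windows and says nothing of binding in these samples.

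Total counts ran from 15636400 to 29913300 per library, with a median of 20882100. The summed level of 10 lymphocyte markers (B and T cell genes) ran from 8.46 to 2294 CPM (counts scaled to a common library total) in ad-lib and from 11.02 to 2450 in TAN libraries. It lay below 500 CPM in 13 libraries, among them all 4 of TAN at 4 PM, 3 of 4 of TAN at 12 AM and none of ad-lib at 4 PM. In bulk tissue, fewer cells of a type and less RNA per cell cannot be told apart. The summed level of 10 adipocyte markers was 8854 to 67749 CPM, so adipocyte RNA was present in every library although the series text names a stromal fraction. The clock gene Nr1d1, a repressor with a daytime peak, averaged highest at 4 PM in ad-lib, but 2 of the 4 ad-lib libraries at 4 AM had 54.5 and 69.9 CPM where the others had 7.44 and 4.62. Values without this pair are given beside the tests over the day, the fitted 24-h cycles and the correlations of courses.

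Levels per length, as RPKM (CPM divided by gene length), differed widely among the 10 genes. Insig1 had the highest median over 48 libraries (122 RPKM), followed by Nr1h3 (39.9) and Srebf1 (34.8). Mlx (21.9), Insig2 (21.0) and Nr1h2 (15.1) were intermediate. Srebf2 (7.97), Mlxipl (5.50), Mlxip (5.22) and Scap (3.32) were lowest. Ranges of neighbours in this order overlapped throughout, for example Nr1h3 at 17.2 to 79.2 RPKM and Srebf1 at 12.6 to 81.5 RPKM. Insig1 also varied most between libraries, 38.6-fold from lowest to highest, against 3.52-fold for Nr1h2.

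**Figure D1:**
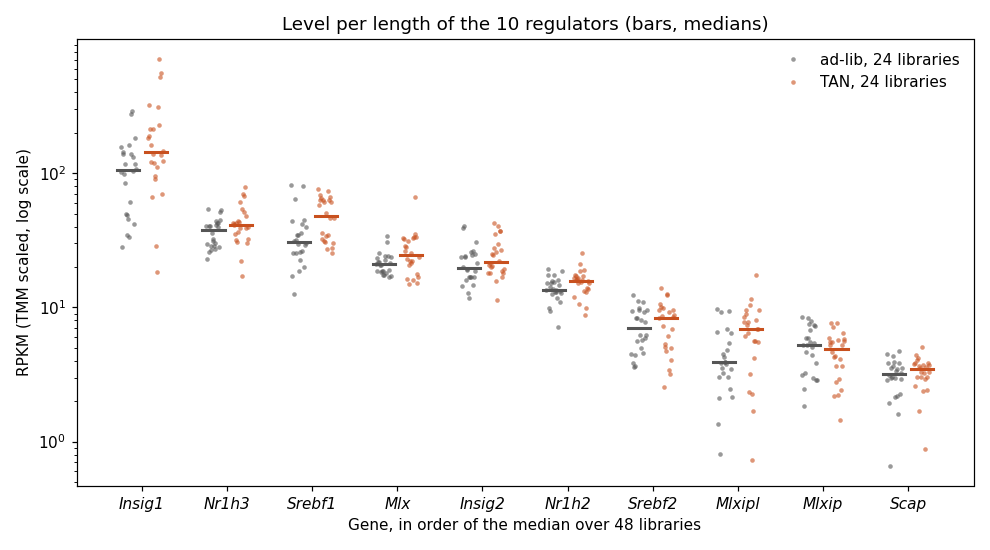
Level per length of each regulator in every library (RPKM, log axis), ad-lib in grey and TAN in orange, with bars at the medians of 24 libraries per diet. Insig1 stands highest with a median of 122 RPKM over all libraries, and Scap lowest at 3.32 RPKM.

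In the ChREBP group, Mlx followed the clearest course over the day, and only in TAN did this course pass the test. TAN libraries had 65.3, 64.5, 52.6 and 57.4 CPM at 8 AM, 56.1, 46.1, 32.3 and 61.96 CPM at 12 PM and 29.97, 41.1, 44.4 and 43.1 CPM at 4 PM. They had 51.0, 44.1, 31.8 and 65.7 CPM at 8 PM, 67.3, 132, 70.7 and 66.3 CPM at 12 AM and 30.4, 35.4, 33.5 and 47.8 CPM at 4 AM. The 12 AM libraries lay above each library of the other times, and the 8 AM libraries above those at 4 PM and 4 AM but not above all of those at 12 PM and 8 PM. Variation over time in TAN was called for Mlx (edgeR quasi-likelihood F test, Benjamini-Hochberg adjusted p = 0.0014), where 23% of all genes were called. A 12-h harmonic, a pair of peaks a day, was also called (adjusted p = 0.0196, 2.07% of genes called), with an amplitude of 0.42 on the log2 scale, and was lost without replicate 4 of TAN at 12 PM or replicates 1 or 3 at 4 AM. In ad-lib, Mlx means ran from 37.7 ± 2.9 CPM (SD, n = 4) at 4 PM to 54.0 ± 13.4 CPM at 12 AM, with overlapping libraries and no call (adjusted p = 0.93, and 0.719 without the ad-lib 4 AM pair). The difference between the diets in this course was not called (adjusted p = 0.349 for the interaction, and 0.236 without the ad-lib 4 AM pair), so the courses are not shown to differ.

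Mlxip, the ChREBP paralog also known as MondoA, was lower in TAN at 4 PM. Its levels were 18.2, 35.99, 23.3 and 30.5 CPM in TAN and 43.7, 48.9, 68.9 and 62.5 CPM in ad-lib. The 4 TAN libraries lay below each of the 4 in ad-lib, and the log2 fold change was -1.05 ± 0.37 (SE) with adjusted p = 0.0487 by edgeR at a time when 15.3% of all genes were called. At 12 AM the TAN libraries had 34.4, 12.0, 20.1 and 30.6 CPM and the ad-lib libraries 36.8, 24.9, 61.5 and 45.4 CPM, with an overlap and no call. Fitted to the 24-h cycle, Mlxip was highest near clock hour 8.21 in TAN and 18.8 in ad-lib, counted from midnight, with log2 amplitudes of 0.49 and 0.41. This difference in the 24-h harmonic was called by edgeR (adjusted p = 0.0345, 20.2% of genes called), also without the ad-lib 4 AM pair (adjusted p = 0.0105, with an ad-lib amplitude of 0.53 and peak at 18.1), but not with the lymphocyte markers as a covariate (adjusted p = 0.272). Within each diet by itself the 24-h harmonic of Mlxip was not called by edgeR (adjusted p = 0.105 in TAN and 0.545 in ad-lib). The 4 PM call was kept in 16 of 48 fits that left out 1 library each, with adjusted p from 0.0352 to 0.148.

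Mlxipl itself was variable and passed no test of diet at single times. At 4 PM the TAN libraries had 12.9, 57.7, 17.6 and 63.8 CPM, spanning the ad-lib values of 19.5, 25.1, 18.0 and 23.7 CPM. At 8 PM they had 12.5, 4.05, 9.42 and 31.2 CPM against 21.7, 21.7, 20.9 and 38.0 CPM in ad-lib, a log2 fold change of -0.84 ± 0.57 (adjusted p = 0.36). The mean over the day was 0.53 ± 0.23 higher in TAN on the log2 scale, which also did not pass (adjusted p = 0.173, and 0.187 without the ad-lib 4 AM pair). With the lymphocyte markers as a covariate the 8 PM value became -1.31 and was called (adjusted p = 0.048), and with only libraries above 500 CPM of these markers it was -1.54 (adjusted p = 0.0146). These fits called 4067 and 4866 of all genes at 8 PM, with medians of -0.17 and -0.22, against 2333 genes in the main fit. Variation of Mlxipl over time in TAN was not called by edgeR (adjusted p = 0.165), nor was its 24-h harmonic there (adjusted p = 0.216). Limma voom called both (adjusted p = 0.0408 and 0.0317, beside 6661 and 5664 of all genes). So did edgeR with the lymphocyte covariate (adjusted p = 0.0147 and 0.0035, beside 3823 and 4625).

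**Figure D2:**
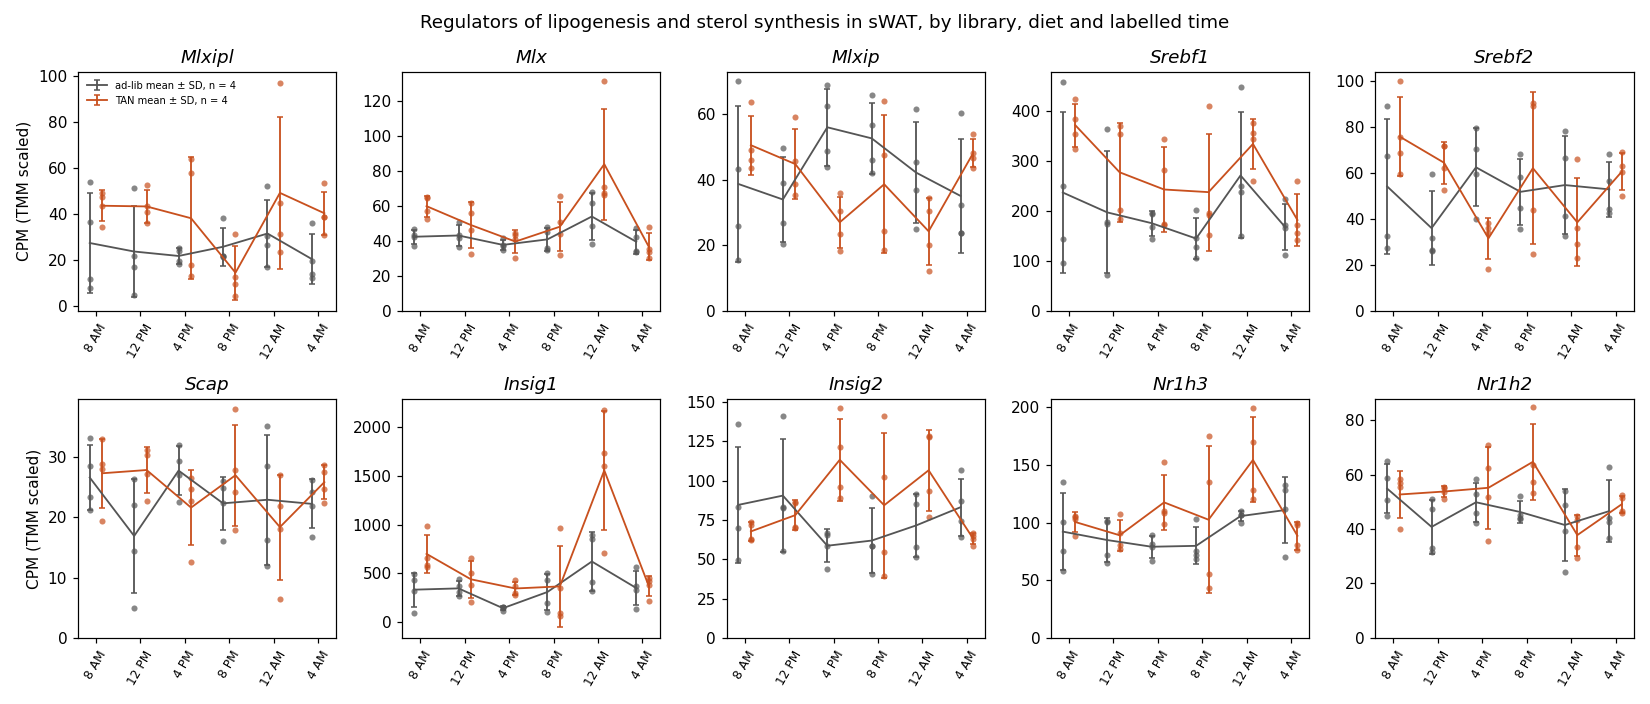
CPM of each regulator in every library by labelled time, ad-lib in grey and TAN in orange, with lines through the means and bars of 1 SD (n = 4). Insig1 and Mlx were highest in TAN at 12 AM, with means of 1558 and 84.0 CPM, and at 4 PM Mlxip and Srebf2 lay lower and Insig2 higher in TAN, without overlap.

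In the SREBP group, Insig1, the sterol-sensitive retention protein and itself an SREBP target, moved most. At 4 PM its TAN libraries had 428, 367, 279 and 292 CPM against 154, 107, 152 and 142 CPM in ad-lib. At 8 AM they had 567, 987, 582 and 656 CPM against 487, 316, 87.0 and 427 CPM. The diets did not overlap at either time, as held for 30.6% and 3.07% of all genes. At 12 AM the TAN libraries had 710.2, 2180.3, 1608 and 1734 CPM against 856, 896, 321 and 405 CPM, with an overlap from 1 TAN library. That library had 1611 CPM of lymphocyte markers, while the other 3 had 12.1 to 362 CPM.

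No single time passed the edgeR test for Insig1 in the fit of all 48 libraries: the log2 fold changes were 1.08 ± 0.56 at 8 AM (adjusted p = 0.768), 1.302 ± 0.56 at 4 PM (adjusted p = 0.0992) and 1.33 ± 0.56 at 12 AM (adjusted p = 0.215). A separate edgeR fit of the 4 PM libraries called Insig1 (1.24, adjusted p = 0.00229), beside 4408 of all genes. Over the day its mean was 0.73 ± 0.23 higher in TAN and was called by edgeR (adjusted p = 0.0478), where 5.42% of genes were called. DESeq2 called it as well (adjusted p = 0.0171), and limma voom did not (0.68, adjusted p = 0.0975). The call was kept in 14 of 48 fits that left out 1 library each, and not without the pair of ad-lib 4 AM libraries with high Nr1d1 (0.73, adjusted p = 0.075) or with the lymphocyte markers as a covariate (0.52, adjusted p = 0.102). Among the 10 regulators 9 had a positive mean difference, against 39.3% of all genes, and their median was 0.20 against -0.08 for all genes (9, 0.18 and -0.06 without the ad-lib 4 AM pair).

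Insig1 also varied over time in TAN (adjusted p = 0.00915), from 342 ± 70 CPM at 4 PM to 1558 ± 616 CPM at 12 AM with no overlap. In ad-lib it ran from 139 ± 22 CPM at 4 PM to 619 ± 299 CPM at 12 AM, again with no overlap, but the test over all 6 ad-lib times did not pass (adjusted p = 0.672, and 0.373 without the ad-lib 4 AM pair), where 0.0551% of genes were called. The ratios of highest to lowest mean, 4.56 in TAN and 4.47 in ad-lib, were close. The calls over time in TAN for Mlx and Insig1 were kept in 48 of 48 fits with 1 library left out.

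Insig2, the retention protein that is not an SREBP target, was higher in TAN at 4 PM. Its levels were 146, 95.7, 122 and 89.2 CPM in TAN and 65.5, 66.7, 44.1 and 58.1 CPM in ad-lib. Each TAN library exceeded each ad-lib library, for a log2 difference of 0.95 ± 0.30 with adjusted p = 0.0301 by edgeR. The call was lost without replicate 1 (0.80, adjusted p = 0.113) or 3 (0.92, adjusted p = 0.0575) of TAN and without replicate 3 (0.86, adjusted p = 0.106) or 4 (0.96, adjusted p = 0.0649) of ad-lib at 4 PM. At 8 AM and 4 AM the fitted differences were in the other direction, -0.32 ± 0.30 and -0.39 ± 0.30, without calls. Its 24-h harmonic differed between the diets (adjusted p = 0.0218), with peaks near clock hour 18.4 in TAN and 7.21 in ad-lib and log2 amplitudes of 0.28 in both. Without the ad-lib 4 AM pair the fitted 4 AM difference was -0.35, and the 24-h harmonic still differed (adjusted p = 0.0271, with an ad-lib peak at 7.28). With the lymphocyte markers as a covariate it did not pass (adjusted p = 0.378). Within each diet by itself the 24-h harmonic of Insig2 was not called by edgeR (adjusted p = 0.0952 in TAN and 0.467 in ad-lib).

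Srebf2 resembled Mlxip at 4 PM, with 18.3, 36.2, 38.1 and 33.7 CPM in TAN and 40.1, 59.6, 79.6 and 70.7 CPM in ad-lib. The groups did not overlap, but the log2 fold change of -0.99 ± 0.36 missed the threshold by edgeR (adjusted p = 0.0567) and by limma voom (adjusted p = 0.0585). It passed by DESeq2 (-1.01, adjusted p = 0.0382), with genes limited to at least 10 counts in every library (-1.04, adjusted p = 0.0424), in a separate fit of the 4 PM libraries (-1.05, adjusted p = 0.0176) and in 6 of 48 edgeR fits with 1 library left out. At 12 PM it was 0.84 ± 0.36 (adjusted p = 0.61), so the fitted direction was not the same through the day. In TAN its variation over time was called (adjusted p = 0.048), from 31.6 ± 9.0 CPM at 4 PM to 75.9 ± 17.3 CPM at 8 AM, a call kept in 10 of 48 fits with 1 library left out. This call over time was lost with the lymphocyte or the adipocyte markers as a covariate. It was also lost with the replicate number as a block and with no filter on low counts.

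Srebf1 means were higher in TAN at all 6 times, with log2 fold changes of 0.11 to 0.72, none of them called. Its TAN libraries at 8 AM lay at 425, 324, 353 and 385 CPM, while the ad-lib libraries spread over 459, 249, 96.3 and 143 CPM. The mean over the day was 0.46 ± 0.16 higher and was not called by edgeR (adjusted p = 0.0746, and 0.115 without the ad-lib 4 AM pair), but was called by DESeq2 (0.46, adjusted p = 0.0461) and by limma voom (0.52, adjusted p = 0.0496). Scap, the escort of both SREBPs, had log2 fold changes of -0.36 to 0.72 and no call.

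Neither LXR gene was called between the diets at any time by edgeR in the fit of all 48 libraries. Nr1h3 had 110.5, 109, 153 and 98.5 CPM in TAN and 66.8, 89.5, 79.1 and 81.2 CPM in ad-lib at 4 PM, without overlap, and the log2 fold change of 0.57 ± 0.27 was not called (adjusted p = 0.137). A separate edgeR fit of the 4 PM libraries called Nr1h3 (0.51, adjusted p = 0.0454), beside 4408 of all genes. At 12 AM the TAN libraries, at 128, 170.0, 199 and 121 CPM, again lay above the ad-lib libraries, at 110.1, 107, 99.6 and 107 CPM (0.55 ± 0.27, adjusted p = 0.293). At that time 9.13% of genes did not overlap, in either direction. At 4 PM and 12 AM, 4 and 3 of the 4 TAN libraries lay below 500 CPM of lymphocyte markers, and 0 in ad-lib. The ratio of Nr1h3 medians, below to above that level, was 1.28 in ad-lib and 1.45 in TAN, all times together. Nr1h2 did not overlap at 12 PM and 8 PM, with TAN higher by 0.40 ± 0.21 and 0.48 ± 0.21, at times when 4.84% and 16.1% of genes did not overlap, and neither was called. At 4 AM 0 of the 10 genes lacked an overlap, against 3.09% of all genes.

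Across the 10 genes, the edgeR test called 1 higher (Insig2) and 1 lower (Mlxip) at 4 PM, beside 6.54% and 8.77% of all genes, and 0 at the other times. At those times 1 gene at 8 AM, 2 at 12 PM, 1 at 8 PM, 3 at 12 AM and 0 at 4 AM had an unadjusted p under 0.05, where 6.58%, 7.37%, 28%, 17.5% and 2.64% of all genes had one. DESeq2 and limma voom called 0 of the 10 at these times. The shares of all genes called were 0.015% at 8 AM, 0.0901% at 12 PM, 11.7% at 8 PM, 0.15% at 12 AM and 0% at 4 AM. At 4 PM 5 of the 10 did not overlap, 3 higher and 2 lower, beside 30.6% of all genes, 12.8% higher and 17.8% lower. An effect of TAN that differed between times was called for 0 of the 10 by edgeR (3 at an unadjusted p under 0.05, beside 30.2% of genes), for 2 by DESeq2 and for 2 by limma voom. Of the 19977 genes, edgeR called 1793 (8.98%), DESeq2 3999 and limma voom 4390. Without the ad-lib 4 AM pair edgeR called 1, Mlxip (adjusted p = 0.03), beside 3152 of all genes. Variation over time in ad-lib was called for 0 of the 10 (1 at an unadjusted p under 0.05, Insig1, beside 6.67% of genes) by all 3 tools. A 24-h harmonic in TAN was called for 0 of the 10 by edgeR (3 at an unadjusted p under 0.05, beside 35.1% of genes), 1 by DESeq2 and 2 by limma voom. Of the 19977 genes, edgeR called 3965 (19.8%), DESeq2 4835 and limma voom 5664.

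**Figure D3:**
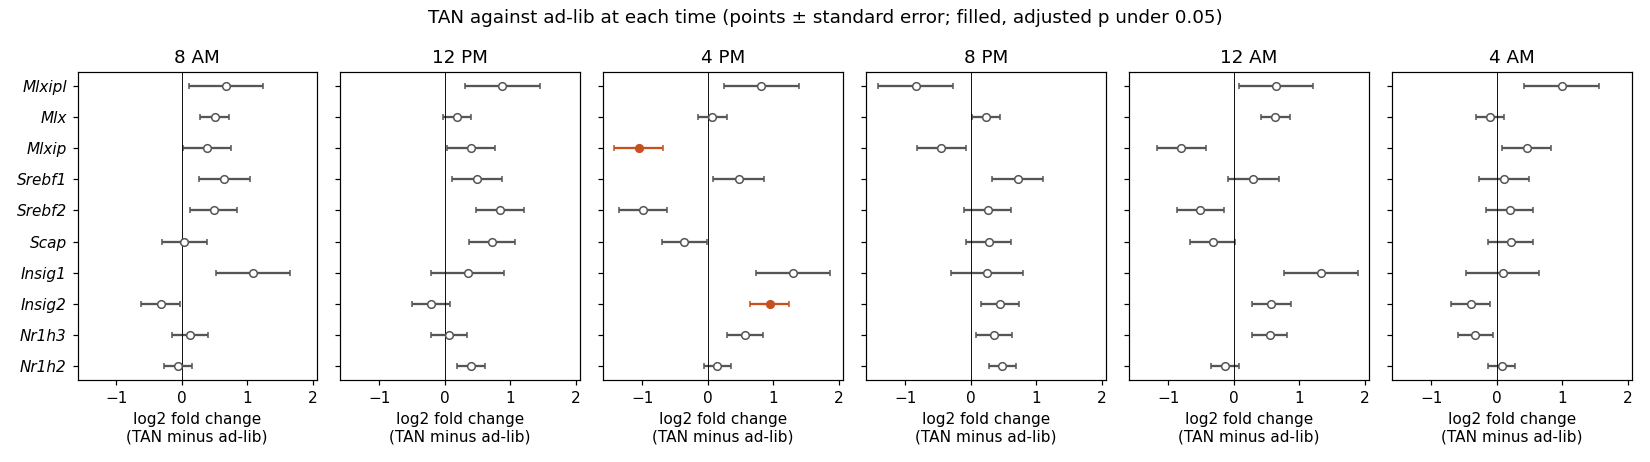
Log2 fold change of TAN over ad-lib for each regulator at each labelled time, with bars of 1 standard error and filled symbols for an adjusted p under 0.05. Only Mlxip (-1.05) and Insig2 (0.95) at 4 PM are filled.

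Lymphocyte and adipocyte markers moved with diet at 4 PM. The lymphocyte marker sum was 11.02 to 335 CPM in the TAN libraries and 975 to 1741 CPM in ad-lib, and the adipocyte marker sum 39203 to 65433 CPM against 18084 to 26316 CPM. Macrophage markers were at 460.4 to 1832 CPM in TAN and 1443 to 2251 CPM in ad-lib, and each of the 10 markers in all 3 lists was detected in both groups. Within ad-lib, the 5 libraries below 500 CPM of lymphocyte markers had 15.4 to 39.0 CPM of Mlxip and 82.6 to 141 CPM of Insig2, and the other 19 had 23.8 to 70.0 CPM and 40.6 to 91.6 CPM. With the lymphocyte markers as a covariate the 4 PM values became -0.50 (adjusted p = 0.615) for Mlxip, 0.40 (adjusted p = 0.554) for Insig2 and -0.19 (adjusted p = 0.84) for Srebf2, and 0 of all genes were called at 4 PM. With the adipocyte markers as a covariate they became -0.58 (adjusted p = 0.381), 0.45 (adjusted p = 0.242) and -0.42 (adjusted p = 0.468). At 4 PM diet and these marker levels cannot be told apart. The calls over time in TAN for Mlx and Insig1 remained under both covariates, with adjusted p = 0.000637 and 0.000729 under the first and 0.000712 and 0.000233 under the second.

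**Figure D4:**
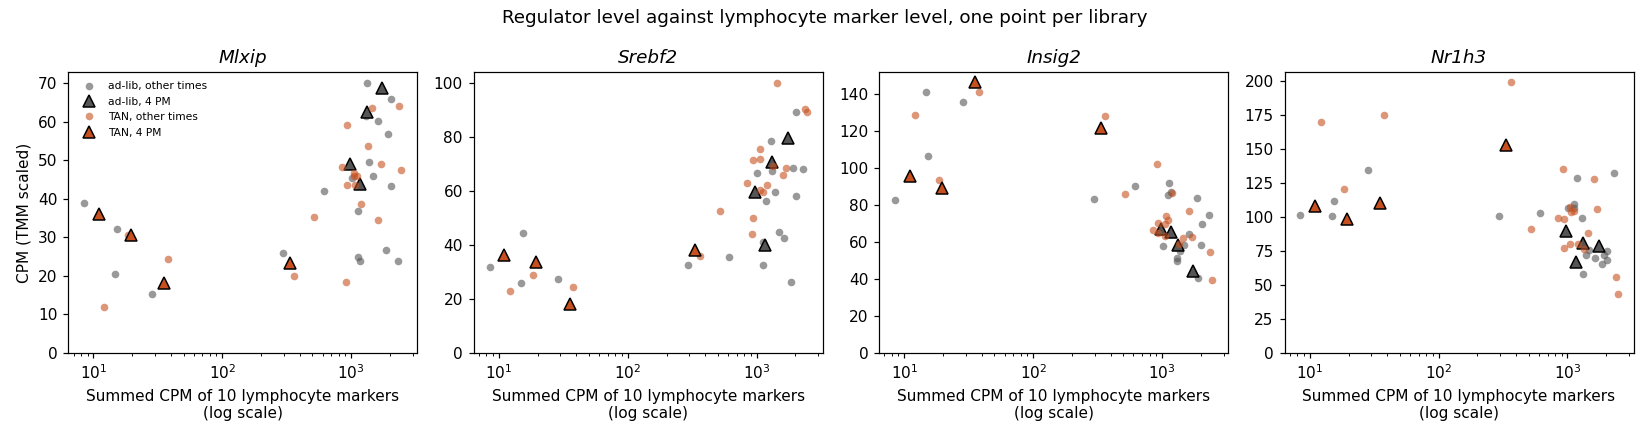
CPM of 4 regulators against the summed CPM of 10 lymphocyte markers (log axis), one point per library, with triangles for 4 PM. All 4 TAN libraries at 4 PM lie at 335 CPM of markers or below and all 4 ad-lib libraries at 975 or above.

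Courses over the 12 groups of diet and time were compared as a description, since all genes share the same libraries. Values in parentheses are with all libraries, then without the ad-lib 4 AM pair. Mlx and Insig1 ran together (Pearson r = 0.85 and 0.86 over 12 group means of log2 CPM), as did Mlx and Srebf1 (0.82 and 0.79), Srebf2 and Scap (0.81 and 0.81) and Mlxip and Srebf2 (0.80 and 0.62). Mlxip and Insig2 ran in opposite directions (-0.94 and -0.88). Levels of some of these genes also differed between libraries below and above 500 CPM of lymphocyte markers, all times together. The ratio of medians, below to above, was 0.57 in ad-lib and 0.52 in TAN for Mlxip. It was 0.54 and 0.47 for Srebf2, and 1.65 and 1.83 for Insig2. For Insig1 it was 1.46 and 1.59, for Srebf1 1.34 and 1.36, for Scap 0.84 and 0.85 and for Mlx 1.02 and 1.11. How far marker levels enter the correlations was not tested. Outside the group, the courses most like Mlxipl were those of Ccdc57 (0.94 and 0.94), Ddo (0.94 and 0.89) and Acox2 (0.93 and 0.84). Those most like Srebf1 were Sh2b2 (0.91 and 0.91), Anks1 (0.90 and 0.89) and Slc25a44 (0.87 and 0.87), those most like Srebf2 were Coro7 (0.97 and 0.97), Sipa1 (0.97 and 0.97) and Rhobtb2 (0.97 and 0.97), and those most like Nr1h3 were Coq5 (0.96 and 0.92), Mmachc (0.94 and 0.90) and Mrap (0.94 and 0.84).

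Genes known to be induced by these factors were followed beside them. Of 13 lipogenic targets of ChREBP and SREBP-1, edgeR called 10 higher in TAN at 4 PM, beside 6.54% of all genes, 4 higher at 12 PM, beside 0.0901% called in either direction, and 0 lower at either time. Their median log2 fold change at 4 PM was 1.95 against -0.09 for all genes. With the lymphocyte markers as a covariate 0 of the 13 were called at 4 PM (5 at an unadjusted p under 0.05, median 0.96) and 6 at 12 PM, and with the adipocyte markers 4 and 6. Of all genes the lymphocyte covariate called 0 at 4 PM and 97 at 12 PM, and the adipocyte covariate 205 and 115. Elovl6, a fatty acid elongase, had 717 ± 488 CPM in TAN and 45.2 ± 26.4 CPM in ad-lib at 4 PM (log2 fold change 3.99 ± 0.69, adjusted p = 0.00397). Acly, which makes cytosolic acetyl-CoA, rose by 3.01 ± 0.56 (adjusted p = 0.006), and Me1, a source of NADPH, by 3.15 ± 0.59 (adjusted p = 0.00618). With the lymphocyte covariate these values were 2.51 for Elovl6, 1.99 for Acly and 1.94 for Me1 (adjusted p = 0.134, 0.205 and 0.188). Over the day all 13 had higher means in TAN and 9 were called, beside 5.42% of all genes. The count over the day was 9 with the lymphocyte covariate and 8 without the ad-lib 4 AM pair, beside 955 and 655 of all genes. Among the 6 tested of 7 carbohydrate response targets, Slc2a5, the fructose transporter, was called at 12 PM, with 49.5 ± 22.8 CPM against 1.85 ± 0.82 CPM (4.74 ± 0.83, adjusted p = 0.00412, and 5.16, adjusted p = 6.5e-05, with the lymphocyte covariate, but 4.91, adjusted p = 0.0514, with only libraries above 500 CPM of the markers). Gpd1, which makes glycerol 3-phosphate, had a log2 fold change of 1.19 ± 0.45 at 4 PM (adjusted p = 0.062), and Fgf21 had counts in 1 TAN library and 0 ad-lib libraries at 8 PM (0.35 ± 0.70 CPM in TAN, adjusted p = 0.0641). The list did not move as a whole: at 12 PM only 2 of the 6 were higher in TAN. Their median at 12 PM was -0.36 against 0.035 for all genes, and 2 were lower at an unadjusted p under 0.05 by edgeR. Over the day edgeR called 2 higher, and 2 were lower at an unadjusted p under 0.05.

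Of 20 sterol synthesis targets of SREBP-2, edgeR called 8 higher and 1 lower at 4 PM, beside 6.54% and 8.77% of all genes, and 5 higher and 0 lower at 12 AM, beside 0.15% in either direction, with medians of 0.79 and 1.08. With the lymphocyte covariate 0 were called at 4 PM (4 at an unadjusted p under 0.05, median 0.27) and 3 at 12 AM, and with the adipocyte covariate 1 and 6. Of all genes the lymphocyte covariate called 0 at 4 PM and 9 at 12 AM, and the adipocyte covariate 205 and 84. At 12 AM the synthesis enzymes Cyp51 (165 ± 58 CPM against 61.4 ± 12.2 CPM), Mvd (40.8 ± 12.2 against 10.7 ± 2.5) and Dhcr7 (67.1 ± 13.3 against 31.1 ± 5.7) rose by 1.43, 1.93 and 1.11 on the log2 scale (adjusted p = 0.00161, 0.00161 and 0.00375). With only libraries above 500 CPM of lymphocyte markers, which left 1 TAN library at 12 AM, the values were 0.61, 1.32 and 0.78 and none passed (adjusted p = 0.687, 0.489 and 0.495). In TAN 16 of the 20 varied over time, beside 23% of all genes, and 0 of 20 in ad-lib by edgeR. Of these 20, 13 had an unadjusted p under 0.05 in ad-lib, where 6.67% of all genes had one. DESeq2 called 3 of them in ad-lib and limma voom 0, beside 114 and 11 of all genes.

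Of 8 LXR targets edgeR called 2 higher and 2 lower at 4 PM, beside the same 6.54% and 8.77% of all genes, and 0 with either covariate (2 and 3 at an unadjusted p under 0.05). The lower ones were Mylip, a degrader of the LDL receptor (45.8 ± 4.2 CPM against 104 ± 19 CPM, adjusted p = 0.0093), and Abcg1, a cholesterol exporter (20.2 ± 4.6 against 74.9 ± 19.7, adjusted p = 0.0253), while the higher ones were Apoc1 and Lpcat3, named after their values were seen. Abca1, another exporter, was lower at 8 PM (149 ± 66 against 318 ± 48, adjusted p = 0.0206, and 0.00308 with the lymphocyte covariate), where 11.7% of all genes were called, and 4067 genes with the covariate. Of 9 genes of SREBP processing 0 were called between the diets at any time by edgeR, with 3 at an unadjusted p under 0.05 at 4 PM, where DESeq2 called 2 and limma voom 1, beside 4345 and 3544 of all genes. The smallest adjusted p by edgeR was that of Erlin2 at 4 PM (0.62 ± 0.23, adjusted p = 0.0558), before Fbxw7 (-1.13 ± 0.43, adjusted p = 0.0618). Of 10 dimer partners and coregulators, Max, a partner of Myc, was lower at 4 PM (-0.47 ± 0.16, adjusted p = 0.0396), and Rxrb, an LXR partner (0.84 ± 0.30, adjusted p = 0.0564), and Ncoa1, a receptor coactivator (-1.08 ± 0.42, adjusted p = 0.0778), were not called at 8 PM. With the lymphocyte covariate Max was not called (-0.25, adjusted p = 0.549), while Rxrb (0.91, adjusted p = 0.018) and Ncoa1 (-1.15, adjusted p = 0.0425) were called at 8 PM, beside the same 4067 of all genes.

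**Figure D5:**
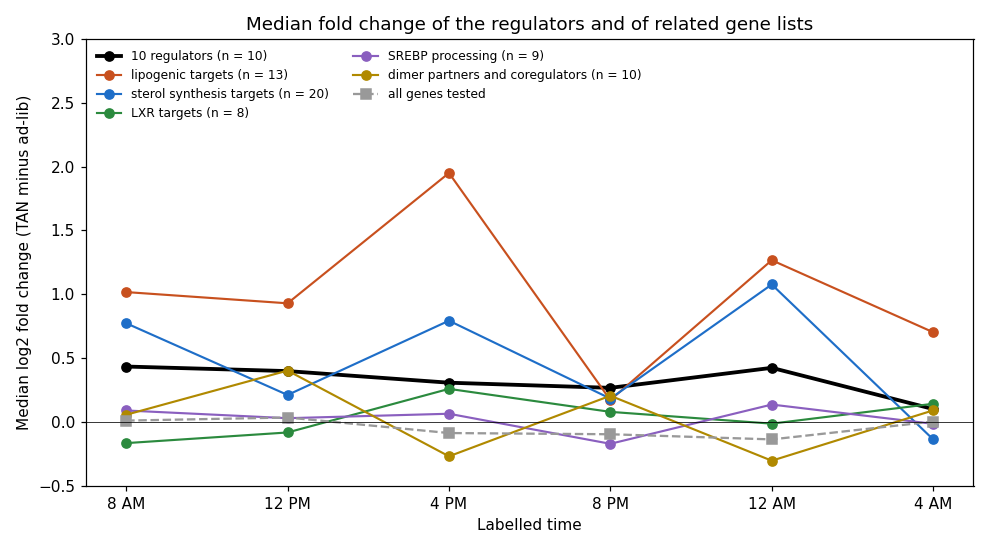
Median log2 fold change of TAN over ad-lib at each labelled time for the 10 regulators, for 5 lists of related genes and for all genes tested (dashed). The carbohydrate response targets are not drawn. The lipogenic targets peak at 1.95 at 4 PM, where the 10 regulators have a median of 0.31.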

How the data were processed

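Bulk RNA-seq of iWAT from 48 libraries was used. The authors selected poly-A RNA and deposited raw counts per gene for each library, without normalization. The submitters' processing notes name TopHat 1.3.3, DESeq2 1.20.0, limma and edgeR and several builds without roles, and the counting tool and strandedness are not given in the sources used here. Gene positions of 10 of the 10 regulators equal GENCODE M21 on GRCm38, and 8 of them overlap other annotated genes, so that reads there may be shared. The authors also deposited group means as FPKM, used only to check labels. They matched the count table for 12 of 12 groups. A per-library table published with the study lists 48 of 48 libraries under times 12 h apart from the count table. The times of the sample labels, which the count table and the FPKM share, were used, and the difference was not resolved.

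CPM and RPKM were computed with TMM factors and the deposited gene lengths. Genes were kept by filterByExpr (minimum count 10), and 1 robust quasi-likelihood model was fitted with edgeR 4.0.16 in R 4.3.3 to 12 groups (36 residual degrees of freedom). P-values were adjusted by the Benjamini-Hochberg method over all 19977 genes within each test, and called under 0.05. SE values are the absolute log2 fold change over the square root of F. DESeq2 1.42.0, limma 3.58.1, other filters, factors and covariates, and 48 fits with 1 library left out were alternatives. The tests were checked on simulated counts. The regulators and gene lists were chosen with earlier results of these data known. All regulators were named, and from each related list the 3 genes with the smallest adjusted p, except that a few genes counted in the lists are not reported here by name. Labels do not say whether libraries came from separate animals, so p-values measure the spread between libraries.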

Additional observations from a re-analysis of the deposited data

Results flagged for a closer look

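In 5 of the 120 groups of 4 libraries (10 genes in 12 groups), 1 library lay far from the other 3, where chance flags about 1 in 20 groups. Mlxipl in ad-lib at 8 PM had 38.0 CPM in replicate 4 against 20.9 to 21.7 in the others. Mlx in TAN at 12 AM had 131.8 CPM in replicate 2 against 66.3 to 70.7. Srebf1 in TAN at 8 PM had 411 CPM in replicate 4 against 152 to 196. Nr1h3 in TAN at 8 AM had 88.3 CPM in replicate 4 against 103 to 106, and Nr1h2 in TAN at 8 AM had 40.0 CPM in replicate 2 against 55.3 to 58.4.

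The 24-h course differed between the diets by the edgeR test of that difference for Mlxip (adjusted p = 0.0345) and Insig2 (adjusted p = 0.0218), in 36 and 46 of 48 fits with 1 library left out. With the lymphocyte markers as a covariate neither was called (adjusted p = 0.272 and 0.378) and Mlxipl was instead (adjusted p = 0.00996). With the adipocyte markers both were (adjusted p = 0.0174 and 0.0166), and so was Mlxipl (adjusted p = 0.048).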

How the results depend on the processing

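The calls over time in TAN for Mlx and Insig1 were kept under every alternative that includes this test. Of the regulators called in the contrasts of the diets (2), there were 0 with no filter on low counts or the adipocyte covariate, 1 with the replicate block (Insig2), a log2 fold change over 1 (Mlxip), the lymphocyte covariate or only libraries above 500 CPM of lymphocyte markers (Mlxipl at 8 PM in both), 3 with DESeq2 or at least 10 counts in every library (Srebf2 at 4 PM added), and 5 with a separate fit per time point (Srebf2, Insig1 and Nr1h3 at 4 PM added). Leaving out 1 library gave 0 to 4, and the 4 came without replicate 1 of TAN at 12 AM. Mlxip at 4 PM (-1.20 to -0.90, called in 16 of 48 such fits) was not called with the block (-1.04, adjusted p = 0.0607) or with no filter (-1.12), and Insig2 (0.80 to 1.05, 44 of 48) not with no filter (0.89, adjusted p = 0.0552). The difference over the day (1 called, Insig1, 0.55 to 0.80) fell to 0 with no filter, the block, either covariate or without the ad-lib 4 AM libraries with high Nr1d1, was 1 with limma voom (Srebf1 in place of Insig1) and 2 with DESeq2 (both), and 0 to 2 with 1 library left out. The interaction (0) gave 1 with at least 10 counts in every library, RLE factors, the lymphocyte covariate or without the ad-lib 4 AM pair, 2 with DESeq2 and limma voom, and 0 to 2 with 1 library left out. Variation over time in TAN (3) gave 5 with DESeq2 and 2 to 6 with 1 library left out. Srebf2 dropped out with no filter, the block or the adipocyte covariate, and Mlxipl took its place with the lymphocyte covariate. Limma voom added Mlxipl, and at least 10 counts in every library added Nr1h2. In that test edgeR called 4603 of all genes and DESeq2 7305. The 24-h harmonic in TAN (0) gave 1 with DESeq2, 2 with limma voom and the lymphocyte covariate and 4 with the adipocyte covariate. It gave 0 to 2 with 1 library left out. For this harmonic the lymphocyte covariate called 4625 of all genes and the adipocyte covariate 6557. Its difference between diets (2) gave 1 with RLE factors, 1 with the lymphocyte covariate (Mlxipl) and 0 to 2 with 1 library left out. Limma voom added Mlxipl to that difference (adjusted p = 0.031, beside 6095 of all genes). The edgeR fit with the adipocyte covariate added it as well (adjusted p = 0.048, beside 5384). The 12-h harmonic in TAN (1) gave 2 with the adipocyte covariate and 0 to 3. The ad-lib tests of time gave 0 in every fit. A separate fit per time point by edgeR called 0 lipogenic targets at 12 PM (4 in the joint fit, 7 at an unadjusted p under 0.05) and 0 sterol targets at 12 AM (5 in the joint fit, 14 at an unadjusted p under 0.05). Of all genes the separate fits called 1 at 12 PM and 0 at 12 AM. DESeq2 called 11 sterol targets at 12 AM, beside 568 of all genes. With no filter 5 sterol targets in place of 8 were higher at 4 PM, where 1658 of all genes were called. Causes were not tested. The adipocyte covariate, the 500 CPM limit and the Nr1d1 limit of 50 CPM were chosen after seeing the data. No library exceeded 3 times the median of lymphocyte markers, so that leaving such libraries out was not run.

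Same-numbered libraries of the diets correlated over 0.1 in their deviations in 12 of 24 pairs (-0.64 to 0.85), so the numbers were not taken as a pairing. With 4 libraries a group, the SEs of the contrasts ran from 0.21 to 0.57.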
